A study of Mus musculus with 3 samples.

Results

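The genes described here are the small nucleolar RNA host genes (symbols starting with Snhg) of the mouse, read on cDNA arrays that set liver RNA against spleen RNA. They were chosen by name, with earlier results of these data known: every spot whose only gene symbol in the platform annotation starts with Snhg. This gave 14 spots for 10 genes, of 16273 spots and 7984 named genes in all. The genes are Snhg4, Snhg5, Snhg7, Snhg8, Snhg9, Snhg10, Snhg16, Snhg17, Snhg18 and Snhg20. Snhg18 had 3 spots, Snhg5 and Snhg16 had 2 each, and the other genes had 1.

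There were 3 arrays in 1 group. Each carried spleen RNA in Cyanine-3 and liver RNA in Cyanine-5, both bought as total RNA from Clontech and both amplified in a double round to cRNA, so that amplification is shared by the tissues compared. The labels give no strain, age or sex, and nothing in them says that the arrays, numbered 1 to 3, came from separate animals or amplifications. P-values therefore measure only the spread between arrays, which may be technical. The dyes ran the same way on all arrays, so effects of dye and of tissue cannot be told apart.

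The deposited value is a log2 ratio of the 2 channels at each spot. Which channel is the numerator is not stated. The plasma protein genes Fgb and Ttr had a median of 4.55, 4.99 and 2.52 on arrays 1, 2 and 3, and the B-cell and leukocyte genes Ms4a1, Ighm and Coro1a had -3.06, -3.57 and -2.53. Ttr had a value on array 1 only, so the medians of arrays 2 and 3 are those of Fgb alone. On array 3 the 2 Fgb clones read 4.30 and 0.73, and Coro1a had no value. Negative values are accordingly called higher in spleen below, as the likely direction. The same genes are defining markers of the labelled tissues and lie on opposite sides of 0. An exact 0, listed for 1063 to 5153 spots an array, was read as a missing value.

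Small nucleolar RNAs (snoRNAs) guide chemical modification of ribosomal and spliceosomal RNA. Those of box C/D, named Snord, direct methylation of the sugar, those of box H/ACA, named Snora, direct conversion of uridine to pseudouridine, and Scarna guides act in Cajal bodies. Most mammalian snoRNAs are cut from introns, either of protein-coding genes, often those of the translation machinery, or of long non-coding host genes such as the Snhg family. The spliced host RNA that remains is in several cases short-lived because nonsense-mediated decay degrades it. A cDNA clone of the spliced host reads this exon RNA, not the snoRNA. Clone sequences were not at hand, so which exons or strand each clone reads could not be shown. Several host transcripts start with a run of pyrimidines, as ribosomal protein messages do.

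In RefSeq (GRCm38.p6), Snhg5 (a synonym is mU50HG-b) overlaps 2 snoRNA genes with no class in their names. Snhg16 overlaps Snord1a, Snord1b and Snord1c, and Snhg18 overlaps Snord123. Snhg7 overlaps Snora17 and Snora43, Snhg8 overlaps Snora24, Snhg9 overlaps Snora78 and Snhg4 overlaps Snora74a. Snhg17 overlaps 2 unnamed snoRNA genes, and Snhg10 overlaps Scarna13 and a microRNA gene. For Snhg20 the table lists only a microRNA gene, Mir6516. The annotated starts of the hosts with TATAAA ahead of them (Snhg5, Snhg7 and Snhg8), of the steadiest member (Snhg10), of the lowest (Snhg18) and of Snhg9, whose ratio stayed near 0, are shown to compare how these genes begin. Each line runs 5′ to 3′ on the gene's strand, from 40 bases before the start to 50 bases from it onwards. Capitals mark TATAAA in the 40 to 15 bases before the start, and the first run of at least 5 pyrimidines led by C that begins within 10 bases of it.
Snhg5: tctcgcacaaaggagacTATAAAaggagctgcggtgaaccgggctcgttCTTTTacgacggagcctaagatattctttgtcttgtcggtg
Snhg7: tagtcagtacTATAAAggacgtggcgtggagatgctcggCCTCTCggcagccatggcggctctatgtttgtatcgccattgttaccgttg
Snhg8: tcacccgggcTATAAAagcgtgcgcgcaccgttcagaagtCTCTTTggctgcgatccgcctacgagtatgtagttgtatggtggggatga
Snhg10: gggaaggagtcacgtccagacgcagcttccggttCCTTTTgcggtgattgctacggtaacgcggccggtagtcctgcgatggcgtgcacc
Snhg18: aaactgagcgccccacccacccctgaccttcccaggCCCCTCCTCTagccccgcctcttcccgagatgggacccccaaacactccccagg
Snhg9: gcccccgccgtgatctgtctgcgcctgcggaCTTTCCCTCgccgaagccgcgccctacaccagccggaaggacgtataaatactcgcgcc

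These windows lie at chr9:88522848-88522937 (Snhg5), chr2:26640195-26640284 (Snhg7), chr3:123508287-123508376 (Snhg8), chr12:105032230-105032319 (Snhg10), chr15:32244613-32244702 (Snhg18) and chr17:24719916-24720005 (Snhg9), all on the minus strand. The pyrimidine run began at the annotated first base in Snhg8 and 1 base before it in Snhg7. It occurred in 7 of 10 start windows of 9 Snhg genes, against 30.7% of all 32851 windows in the table and 12 of 35 windows of protein-coding snoRNA hosts. It was sought on the gene's strand only. TATAAA stood 23 bases before the start in Snhg5 and 30 bases before it in Snhg7 and Snhg8. It lay in that stretch in 3 of 10 Snhg windows, 1.99% of all windows and 0 of the 35 windows of protein-coding hosts. Anywhere in the 300 bases from 250 before the start, TATAAA was present on the gene's strand in 4 of 10 Snhg windows and 8.32% of all, and on the other strand in 1 of 10 and 6.95%. Snhg17 gave 2 overlapping windows of these 10, and Snhg4 was left out of them. Snhg9 and the ribosomal protein gene Rps2 lie on opposite strands and overlap, so the spot of either may read RNA of both.

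Most of the measured host genes had more RNA in spleen, by less than 2-fold when all spots of a gene were averaged. Of 10 genes, 8 had a value on all 3 arrays and were tested with limma in a fit over 5731 genes. A gene was called where its p, adjusted by Benjamini-Hochberg, was under 0.05. By this rule 7 were called higher in spleen and none in liver, where 27.8% of all tested genes were called higher in spleen, 27.1% higher in liver and 54.9% in either direction. The 7 calls became 3 without array 1 and 4 when variances were taken gene by gene rather than moderated by limma (own variances below). The median over the 8 genes was -0.72 and over all tested genes -0.03. The 7 genes were below 0 on every array, as were 2194 of 5731 genes (38.3%). Called means ran from 1.42-fold (Snhg17) to 1.92-fold higher in spleen (Snhg18). In bulk RNA, fewer cells that express a gene and less RNA of it per cell cannot be told apart.

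**Figure D1:**
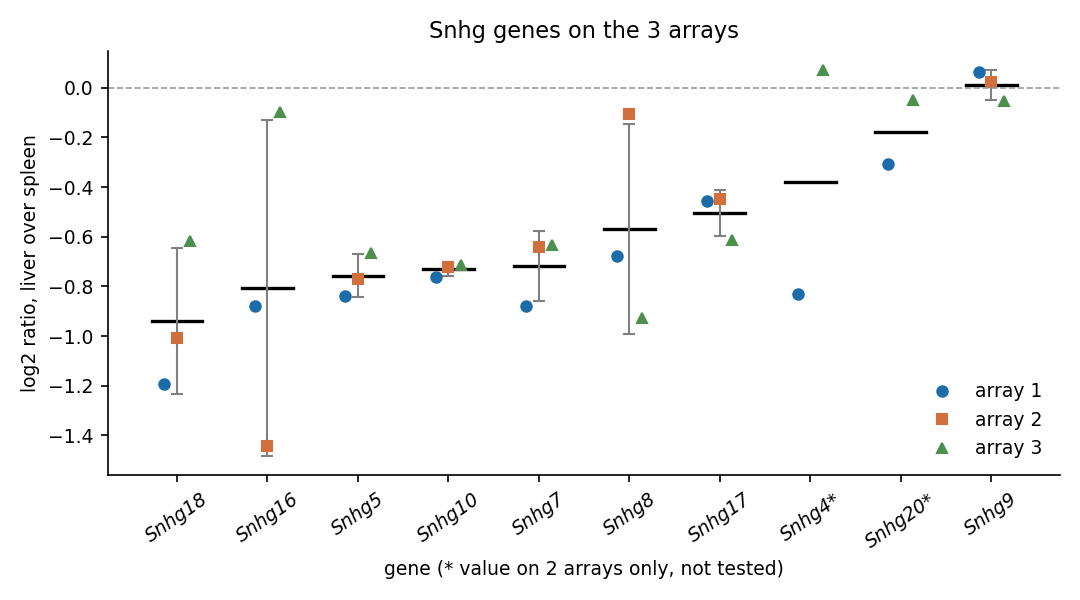
Log2 ratio of liver over spleen (vertical axis) for each Snhg gene (horizontal axis), with 1 point per array, the mean as a black bar and, for genes with 3 values, the SD as a grey bar. Snhg10 and Snhg5 show tight points between -0.84 and -0.66, Snhg16 and Snhg8 spread widely, and Snhg9 sits at 0.

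Among hosts of box C/D snoRNAs, Snhg5, whose intron carries the U50 guide, had gene values of -0.84, -0.77 and -0.66 on arrays 1, 2 and 3. All 3 were low and close together. The mean was -0.76 ± 0.09 (SD, n = 3 arrays; 95% limits from limma -1.05 and -0.47), or 1.69-fold higher in spleen (limma adjusted p = 0.00321). Its 2 spots gave different sizes on the same side. The AK012825 clone read -1.52, -0.91 and -0.89, and the AK016969 clone -0.15, -0.63 and -0.44. AK012825 was thus lower on every array, with a mean difference of -0.70 ± 0.59 (SD). The exact two-sided sign-flip test gave p = 0.25, the smallest that 3 arrays allow. In a fit over 10614 spots, AK012825 averaged -1.11 ± 0.36 (limma adjusted p = 0.00218, or 0.0792 with its own variance, the setting that ended its call). AK016969 averaged -0.41 ± 0.24 (limma adjusted p = 0.0498). That call was lost under every alternative run on spots, with adjusted p from 0.0512 (centred arrays) to 0.182. Without arrays 1, 2 and 3 the adjusted p was 0.0857, 0.182 and 0.139. The tight gene values thus average 2 clones whose own arrays spread more.

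Snhg18, the host of Snord123, had the lowest mean of the family. Its gene values were -1.19, -1.01 and -0.62, all below 0, with array 3 the nearest to it. They averaged -0.94 ± 0.29 (SD, n = 3 arrays; 95% limits -1.32 and -0.56; limma adjusted p = 0.00388). The AK007520 clone read -1.71, -0.92 and -1.27 and the AK007719 clone -0.67, -1.09 and -0.41. Neither clone was the lower on all arrays: their mean difference was -0.57 ± 0.66 (exact sign-flip p = 0.5). The AK002304 clone had a value on array 3 only, of -0.17. Over the clones with a value on every array the mean was -1.01, and with exact zeros as values -0.69, both still called. With its own variance the gene lost its call (adjusted p = 0.0804), and its adjusted p started at 0.00122 over 11 alternatives. Averaged over arrays, AK007520 stood at -1.30 ± 0.40 (limma adjusted p = 0.00139) and AK007719 at -0.73 ± 0.34 (limma adjusted p = 0.0108). AK007520 lost its call with its own variance (adjusted p = 0.0734). Without array 1 the adjusted p of AK007719 was 0.0553, and it ran up to 0.126 over its alternatives.

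Snhg16, the host of the Snord1 guides, was the most variable member. Its gene values were -0.88, -1.44 and -0.10, so array 3 came close to 0. The mean was -0.81 ± 0.68 (SD, n = 3 arrays; 95% limits -1.46 and -0.16; limma adjusted p = 0.0443). Its 2 spots did not have values on the same arrays. The AK013681 clone read -0.88, -1.44 and -0.43, whereas the AK007675 clone had a value on array 3 only, of 0.23. With AK013681 alone the mean was -0.92 ± 0.51 (limma adjusted p = 0.0107 among spots), a call lost with exact zeros as values (adjusted p = 0.104) and with the spot's own variance (adjusted p = 0.153). The gene's call was lost without array 1 (mean -0.77, adjusted p = 0.182) and without array 2 (mean -0.49, adjusted p = 0.0626), and the mean fell to -0.42 (adjusted p = 0.137) with exact zeros as values. Its adjusted p ran from 0.0113 to 0.255 over 11 alternatives.

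**Figure D2:**
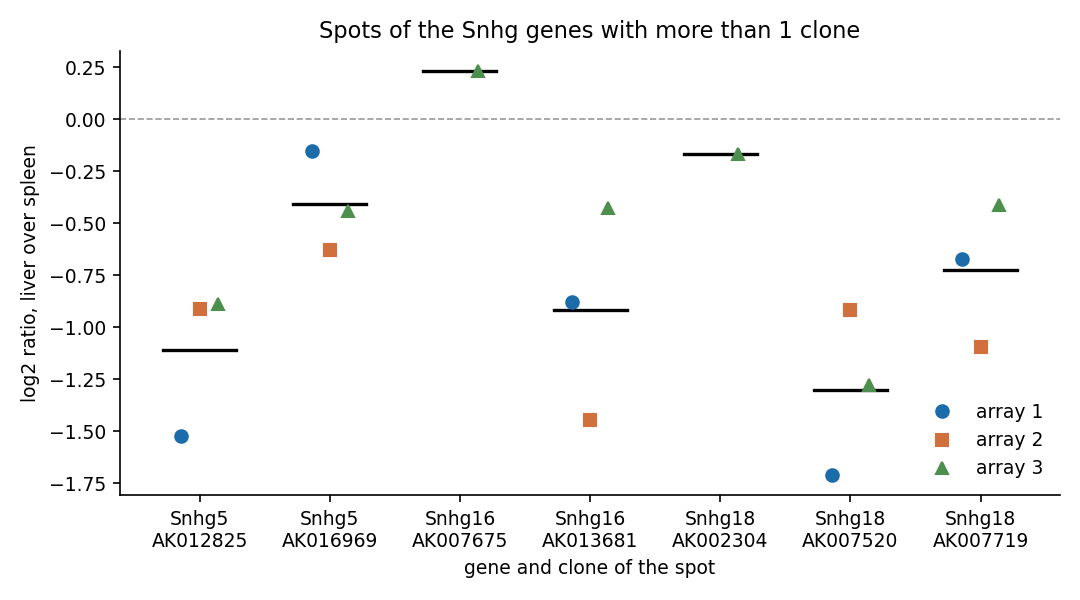
Log2 ratio of liver over spleen (vertical axis) at each spot of Snhg5, Snhg16 and Snhg18 (horizontal axis, gene and clone), with 1 point per array that had a value and the mean as a black bar. The clones AK007675 and AK002304 have a single value, on array 3, and AK007675 is the only one of these spots above 0.

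Among hosts of box H/ACA snoRNAs, Snhg7, which carries Snora17 and Snora43, read -0.88, -0.64 and -0.63. Its values were all low, with arrays 2 and 3 almost equal. The mean was -0.72 ± 0.14 (SD, n = 3 arrays; 95% limits -1.02 and -0.41), or 1.65-fold higher in spleen (limma adjusted p = 0.0047). The call was lost without array 1 (mean -0.64, adjusted p = 0.0618, the highest over 11 alternatives, which start at 0.00273).

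Snhg8, the host of Snora24, read -0.68, -0.10 and -0.93. Array 2 lay near 0 and the others well below it. The mean of -0.57 ± 0.42 (SD, n = 3 arrays; 95% limits -1.03 and -0.11) passed narrowly (limma adjusted p = 0.0446). That call was lost without array 1 (mean -0.52, adjusted p = 0.205) and without array 3 (mean -0.39, adjusted p = 0.173), and the adjusted p ran from 0.00187 to 0.221 over 11 alternatives.

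Snhg17, whose snoRNA genes have no class in their names, read -0.45, -0.45 and -0.61, all on the spleen side and close together. The mean was -0.51 ± 0.09 (SD, n = 3 arrays; 95% limits -0.80 and -0.22; limma adjusted p = 0.0144). Without array 1 it was -0.53 (adjusted p = 0.0977) and without array 3 it was -0.45 (adjusted p = 0.0595), neither of them called, with adjusted p from 0.0116 to 0.0977 over 11 alternatives. Without array 2 it remained called (-0.53, adjusted p = 0.0191).

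Snhg9, the host of Snora78, was the exception among the tested genes. It read 0.06, 0.02 and -0.05, so its arrays fell on both sides of 0. The mean was 0.01 ± 0.06 (SD, n = 3 arrays; limma adjusted p = 0.943), with 95% limits of -0.27 and 0.29. Its sign turned to -0.01 with each array centred on its median and to -0.02 without array 1. Snhg17, the next gene in order, was lower on every array, by 0.52, 0.47 and 0.56 (mean 0.52 ± 0.04). Rps2, a component of the small ribosomal subunit whose gene overlaps Snhg9 on the other strand, read 0.40, 0.57 and 0.26. It averaged 0.41 ± 0.16 (SD, n = 3; limma adjusted p = 0.0365) and exceeded Snhg9 on every array, by 0.40 ± 0.13 on average. The Rps2 call was lost without array 1, 2 or 3 (adjusted p = 0.174, 0.123 and 0.0554), with adjusted p up to 0.174 over its alternatives.

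Snhg10, the host of the Cajal body guide Scarna13, was the steadiest member. It read -0.76, -0.72 and -0.71 from 1 spot. The mean was -0.73 ± 0.03 (SD, n = 3 arrays; 95% limits -1.01 and -0.45), or 1.66-fold higher in spleen (limma adjusted p = 0.00321). The median SD over all tested genes was 0.22. Snhg10 and Snhg5 were the members called under every one of 11 alternatives, with the adjusted p of Snhg10 from 0.00244 to 0.0475 and that of Snhg5 from 0.00235 to 0.0485. As Snhg10 has 1 spot with a value on every array, several of these alternatives left its mean at -0.73.

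The remaining members had no value on array 2 and were not tested. Snhg4, the host of Snora74a, read -0.83 on array 1 and 0.07 on array 3, on opposite sides of 0. Snhg20 read -0.31 and -0.05 on the same arrays. When genes with values on at least 2 arrays were fitted, neither was called (limma adjusted p = 0.29 for Snhg4 and 0.431 for Snhg20). Of the 14 Snhg spots, 10 (71.4%) had a value on all arrays, against 67.2% of all single-gene spots, and 9 of those 10 were called higher in spleen, none in liver. Of all tested spots, 29.6% were called higher in spleen, 28.7% higher in liver and 58.2% in either direction.

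In order from the lowest mean, the tested genes were Snhg18, Snhg16, Snhg5, Snhg10, Snhg7, Snhg8, Snhg17 and Snhg9. The mean differences between neighbours from Snhg18 to Snhg17 were 0.01 to 0.15, each smaller than its SD over arrays, and no such difference had the same sign on all 3 arrays. Neighbours in this order from Snhg18 to Snhg17 were therefore not separated beyond their spread. Sorting by mean makes such steps small, and members further apart in the order were not compared. Only the step from Snhg17 to Snhg9 was larger than its SD. Among all tested genes, 13.2% had a lower ratio than Snhg18, 18.2% a lower ratio than Snhg10, 25.9% a lower ratio than Snhg17 and 52.5% a lower ratio than Snhg9.

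**Figure D3:**
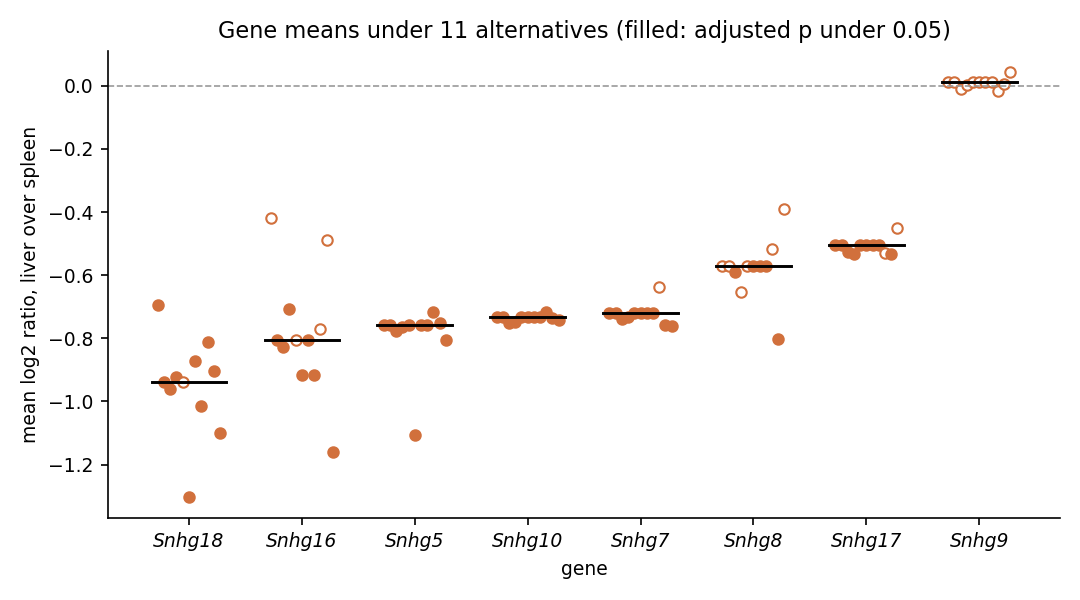
Mean log2 ratio of liver over spleen (vertical axis) of each tested Snhg gene (horizontal axis) under 11 alternative settings, with filled points where the adjusted p was under 0.05 and the reported mean as a black bar. The 7 called genes stay below 0 under all of these settings, and among them Snhg8 has the most open points. Every point of Snhg9 is open.

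For each tested member, the 3 genes with the smallest Euclidean distance between log2 ratios over the 3 arrays were found, a description that rests on 3 values a gene. Nearest to Snhg10 were the ribosomal protein gene Rpl9 (distance 0.04), the non-coding RNA gene Dancr (0.06) and Lsm3 (0.07), whose protein belongs to the Lsm ring of U6 RNA. Dancr read -0.70, -0.73 and -0.69. The Lsm3 mean joined clones at -1.53 and -0.01. Nearest to Snhg5 were Esf1 (distance 0.05), an RNA-binding nucleolar protein gene, Wfdc18 (0.05) and hexokinase Hk2 (0.06). The Hk2 values average a clone at -0.98, -1.47 and -0.48 and another at -0.61, -0.04 and -0.77. Nearest to Snhg7 were Fxyd5, Rc3h1 and the ribosomal protein gene Rpl31, at distances of 0.07 to 0.08. Nearest to Snhg17 were the collagen receptor gene Ddr1, the glycosyltransferase gene C1galt1 and the keratin gene Krt20 (0.04 to 0.07). For Snhg18 they were Rcn1, the oncostatin M receptor gene Osmr and the helicase gene Dhx9 (0.05 to 0.10). Snhg8 (Akap9, 1700102P08Rik and Gabrr2, 0.16 to 0.18) and Snhg16 (Pcsk1n, Synj1 and Polr3f, 0.12 to 0.18) had less close neighbours. Nearest to Snhg9 were Rnf115, Saal1 and Prr23a3 (0.04 to 0.06), none of them called.

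Protein-coding hosts of snoRNAs were called on both sides. Of 48 genes listed, 25 were tested, 13 were called higher in spleen and 8 in liver, where 27.8% and 27.1% of all tested genes were. The share called in liver is thus near that of all genes. The median was -0.56 against -0.03 over all tested genes. The ribosomal protein genes Rpl12 (-1.27 ± 0.19, SD, n = 3 arrays), Rpl5 (-1.18 ± 0.06) and Rps12 (-1.14 ± 0.42) were lowest. On the liver side stood the ubiquitin ligase gene Rnf149 (1.38 ± 0.10), the mitochondrial chaperone gene Hspa9 (1.37 ± 0.62) and Rpl27a (0.82 ± 0.16). Clones of Rpl27a disagreed, with AK clones at 1.17, -0.20 and -0.67 and AW538438 spots at 1.86 and 1.96. So did those of Rpl32, also called in liver (0.48 ± 0.06), with AK clones at -0.50 and -0.49 and AW556391 spots at 0.94 to 1.04. Hspa9 lost its call without array 1 (1.35, limma adjusted p = 0.0513, up to 0.124 over its alternatives). Without array 1 the calls in the list were 8 in spleen and 2 in liver, and without array 2 or 3, or with scaled arrays, those in liver were 5. With own variances they were 6 in spleen and 4 in liver, and Rps12 (adjusted p = 0.0971) was among those lost.

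Genes for proteins that bind snoRNAs or assemble snoRNA particles were called on both sides. Of 20 genes listed, 11 were tested, with 4 called higher in spleen and 4 in liver, where 27.8% and 27.1% of all tested genes were, and the median was -0.02. With so few genes tested, neither count stands apart from the share of all genes. With own variances 0 were called in spleen and 3 in liver, and Nolc1 (adjusted p = 0.0892) lost its call. The chaperone of nucleolar particles Nolc1 (-0.91 ± 0.31, SD, n = 3 arrays), the assembly factor Nufip1 (-0.84 ± 0.53) and the H/ACA core protein Gar1 (-0.76 ± 0.21) were lowest. On the liver side stood Rpap3 (1.04 ± 0.12) and Pih1d1 (0.85 ± 0.08), both of the R2TP assembly complex, and the H/ACA core protein Nop10 (0.57 ± 0.22). The Rpap3 mean joined AW551407 spots at 1.20 to 1.52 with an AK009765 clone at -0.02. Core proteins of 1 particle class thus stood on both sides. Gar1 was called in spleen, and Nop10 and the pseudouridine synthase Dkc1 (0.37 ± 0.06) in liver. The Dkc1 call was narrow (limma adjusted p = 0.0388) and was lost without any 1 of the arrays and with scaled arrays. Nhp2, a further H/ACA core protein, was not called (0.01 ± 0.18, limma adjusted p = 0.943). The box C/D methyltransferase Fbl was not called (-0.22 ± 0.21). Nop56, also of this list, was called higher in spleen (-0.64 ± 0.26, limma adjusted p = 0.0133). Its mean joined clones at -1.14 and -0.32 with a spot read on array 3 only (0.21). Nop56 and Dkc1 are counted among the protein-coding hosts as well. Without array 1, Gar1 (-0.75, limma adjusted p = 0.0589) and Nop10 (0.58, limma adjusted p = 0.107) lost their calls, with adjusted p up to 0.0705 and 0.107 over their alternatives. Nufip1 lost its call without array 3 (-0.90, adjusted p = 0.065, up to 0.184), and the list without array 1 held 2 calls on each side.

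Few genes of nonsense-mediated decay, which degrades several of the spliced hosts, were measured. Of 19 listed, 6 were tested and 2 were called, both higher in spleen, where 27.8% of all tested genes were, with a median of -0.25. Such a share does not stand apart from that of all genes. Without array 1, or with own variances, 1 call was left. These were the kinase gene Smg1, which phosphorylates Upf1 (-1.96 ± 0.31, SD, n = 3 arrays), and Pnrc2 (-1.09 ± 0.53), which links decay to decapping. Pnrc2 lost its call without array 1 (-1.06, limma adjusted p = 0.0699, up to 0.136 over its alternatives), and its mean was -0.63 with exact zeros as values. The Pnrc2 mean joined clones at -1.32 and -1.29 with 2 spots read on array 3 only (-0.21 and 0.43). Over the clones with a value on every array it was -1.31 (limma adjusted p = 0.000721).

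Other long non-coding RNA genes covered a wider range than the Snhg genes. Of 21 listed, 13 were tested, 7 were called higher in spleen and 2 in liver, where 27.8% and 27.1% of all tested genes were, and the median was -0.58. Without array 1, or with own variances, the calls were 4 in spleen and 1 in liver, and without array 2 those in liver were 4. Of those that also carry snoRNAs, Dancr stood at -0.71 ± 0.02 (SD, n = 3 arrays; limma adjusted p = 0.00356) and the imprinted Rian at 0.61 ± 0.18 (limma adjusted p = 0.0104). Rian lost its call without array 1 (0.66, adjusted p = 0.0701, up to 0.0745 over its alternatives). Epb41l4aos was not called (0.48 ± 0.36), and Zfas1 had a value on array 3 only, of 0.29.

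Among non-coding genes without that role, Lockd (-3.45 ± 0.44), the microRNA cluster host Mir17hg (-1.83 ± 0.37), the nuclear RNA gene Malat1 (-1.09 ± 0.58) and Dleu2 (-1.09 ± 0.13) were called higher in spleen, as were Oip5os1 (-0.70 ± 0.13) and Jpx (-0.58 ± 0.39). Mir22hg (1.95 ± 0.13) was called higher in liver. Meg3 (-0.24 ± 0.27, from clones between -1.47 and 0.64), Neat1 (-0.39 ± 0.23) and Pvt1 (-0.29 ± 0.36) were not called. H19 read 1.10 on array 1 and 0.41 on array 3, and Mirg 0.29 and -0.01, without a value on array 2. Without array 1, Oip5os1 (-0.63, limma adjusted p = 0.0656), Jpx (-0.41, limma adjusted p = 0.211) and Malat1 (-0.85, limma adjusted p = 0.0764) lost their calls, the highest adjusted p over alternatives being 0.0656, 0.211 and 0.15. Malat1 also did so without array 3 (-1.02, adjusted p = 0.0575), and its mean was -0.62 with exact zeros as values. Mir17hg lost its call with its own variance (adjusted p = 0.0507). Jpx did so with exact zeros as values (-0.32, adjusted p = 0.0823). The Jpx mean joined a clone at -0.70 with a spot read on array 3 only (0.21). That of Malat1 joined a clone at -1.22 with a spot read on array 2 only (-0.07). Over the clones with a value on every array both were called (limma adjusted p = 0.00575 for Jpx and 0.00202 for Malat1). Epb41l4aos (0.68, adjusted p = 0.00574) and Pvt1 (-0.50, adjusted p = 0.0249) were called without array 2 and otherwise under none of the alternatives, and Meg3 was called with its largest spot alone (-0.73, adjusted p = 0.00395).

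**Figure D4:**
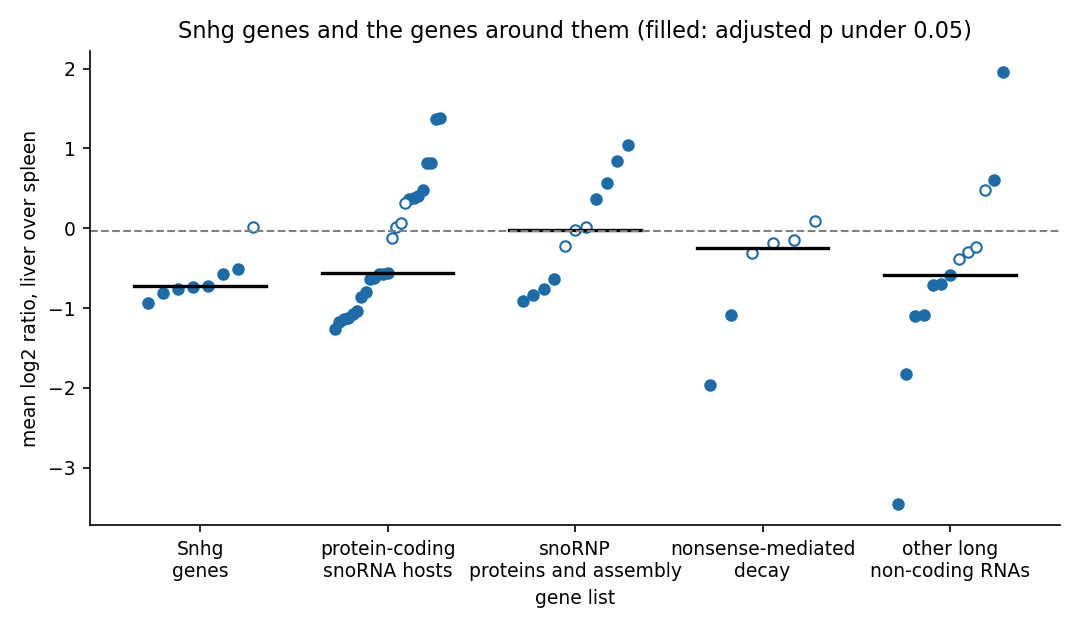
Mean log2 ratio of liver over spleen (vertical axis) of each tested gene in the Snhg family and in 4 lists of related genes (horizontal axis), filled where the adjusted p was under 0.05, with list medians as black bars and the median of all tested genes as a dashed line. The Snhg genes lie between -0.94 and 0.01, whereas the other non-coding RNAs run from -3.45 to 1.95.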

How the data were processed

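The authors deposited 1 log2 ratio of the 2 channels for each spot and array. Their background correction, channel normalization and spot filters were not given in the sources used here. Channel intensities were not used, so signal over background is unknown. The log base was read from the values, whose maximum equals the log2 of 100. Scale and centring are those deposited: arrays 1, 2 and 3 had medians of -0.02, 0.03 and 0.05 over spots with a value.

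Exact zeros were set to missing. Spot names came from the platform annotation, and Entrez identifiers were matched to current RefSeq symbols of GRCm38.p6 (12228 of 12397 annotated spots matched). Of all spots, 12336 had 1 gene and 61 several, and the latter were left out of gene values. Spots of a gene were averaged per array. Genes with a value on all 3 arrays entered an intercept model in limma 3.58.1 under R 4.3.3 (lmFit and eBayes, a two-sided test of a mean of 0), with Benjamini-Hochberg adjustment over all 5731 genes and a threshold of 0.05. The fit was tested on simulated data. Errors are SD over arrays, whose number limits the precision. Promoter windows come from RefSeq tables of GRCm38.p6. Snhg4 was left out of the Snhg windows by a filter on its chromosome, which leaves 9 of the 10 members. The windows of all genes and of protein-coding hosts had no such filter.

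Named genes were every Snhg gene and spot, the 3 highest and 3 lowest called genes of each list, every measured gene of the non-coding list and the 3 nearest genes to each member. Rps2, Dkc1, Fbl, Nhp2, Nop56 and Rpl32 fell outside this rule and were added after their values were seen. Members and lists were chosen with earlier results of these data known. Alternatives covered exact zeros, arrays required, centring, scaling, variance, spot averaging and each array left out.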

Additional observations from a re-analysis of the deposited data

How the results depend on the processing

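The 7 called Snhg genes kept their direction in all 77 combinations of gene and alternative and their call in 63. The direction had little room to change. Each of the 7 was negative on every array, so its mean stayed negative with any 1 array left out. Own variances change no mean. A gene with 1 spot and no exact zero keeps its mean under the settings on zeros, arrays required and spot averaging. Called spots kept their call in 49 of 72, list counts stayed within 1.5 times in 71 of 88, and the other called genes named kept their call in 403 of 473. Dkc1, Nop56 and Rpl32 are not in the last of these counts. With each gene's own variance the whole-table calls fell to 1461 (869 in liver, 592 in spleen), the Snhg calls to 4, and Snhg8 (-0.57, adjusted p = 0.221), Snhg16 (-0.81, adjusted p = 0.255) and Snhg18 (-0.94, adjusted p = 0.0804) lost theirs. With exact zeros as values Snhg16 (-0.42) and Snhg8 (-0.57, adjusted p = 0.126) lost theirs, as did Snhg8 with values on at least 2 arrays (-0.57, adjusted p = 0.0513) and with scaled arrays (-0.65, adjusted p = 0.0626). Leaving out 1 array gave 1841 to 3343 calls (938 to 1530 in liver, 903 to 1813 in spleen) and 3 to 6 Snhg calls. Array 1 was the one that took most calls: without it 3 Snhg genes remained called. Over these, means ran from -0.49 to -1.16 for Snhg16, -0.45 to -0.53 for Snhg17, -0.64 to -0.76 for Snhg7 and -0.39 to -0.80 for Snhg8. Snhg9, a gene with 1 spot, turned from 0.0109 to -0.00972 with centred arrays and ran from -0.0155 to 0.0437 with 1 array left out. Uncalled neighbours turned sign too: Prr23a3 with centred (-0.0178) or scaled (-0.00192) arrays and with 1 array left out (-0.00783 to 0.0184), Rnf115 with its largest or complete spots (-0.0273 in both) and Saal1 with 1 array left out (-0.0233 to 0.0135). The cause of these changes was not tested. Each ratio already pairs the tissues within an array, so no further block was fitted.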
